A study of Mus musculus with 2 samples.

Results

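The 42 genes described here were listed as genes of endothelial cells, which line blood vessels, and of the mural cells wrapped around them. Mural cells are pericytes and smooth muscle cells. The vascular growth factors Vegfa and Vegfb were listed with them. They were taken by gene symbol, and the reads of a gene are the sum over all of its transcript models. Of the 42 listed genes, 41 are annotated in GENCODE M21 and all 41 had reads in both libraries. Des3 matched no symbol of that annotation and had no reads. They were described among 15410 annotated genes with reads. By role, 32 are endothelial members, 7 are mural members, 2 are ligands and 1 is the unmatched name.

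The tissue was adult heart from males of the B6CASTF1/J strain, which is an F1 hybrid, aged 18 to 20 months. Full-length cDNA was sequenced with long reads from 2 libraries, each made from 2 µg of RNA. The labels number the libraries as biological replicates 1 and 2 and give both the same donor identifier, so their spread may be technical. No treatment, genotype or age contrast exists in the series. All tests below compare the 2 libraries, not conditions.

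Endothelial cells sense the growth factor VEGF-A through the receptor tyrosine kinases Kdr and Flt1. The angiopoietin receptor Tek and its relative Tie1 act in vessel maturation and quiescence. Endothelial cells hold together through junction proteins such as VE-cadherin (Cdh5) and claudin-5. They recruit pericytes through PDGF-B, which acts on Pdgfrb of the mural cells. Heart muscle is densely supplied with capillaries, and cardiomyocytes themselves make VEGF-A and VEGF-B, so the ligands mark a signal to the vessels rather than the vessel cells.

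Replicate 1 held 688861 mouse reads and replicate 2 held 1003999. Levels are given as counts per 1e6 mouse reads (CPM). Each long read is counted once, so CPM compares genes by reads and is not divided by length, although long transcripts are captured less completely. A single read is worth 1.45 CPM in replicate 1 and 0.996 CPM in replicate 2. All intervals given are 95% exact binomial (Clopper-Pearson) intervals, which cover counting error only. Where a count was 0, the share or level it allows is given as 3 counts of the total, a rule that is slightly narrower than the exact interval. The cardiomyocyte markers Myh6, Actc1, Tnnt2, Tnni3 and Myl2 summed to 25468.1 and 24152.4 CPM, which fits the labelled tissue. In whole tissue, fewer cells of a type and less RNA per cell cannot be told apart. Which cells made the reads of a member cannot be told either, so the endothelial and mural sums are sums over listed genes.

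The members together held 1958 reads in replicate 1 and 2685 in replicate 2, or 0.284% and 0.267% of mouse reads. The 32 endothelial members summed to 1898.8 and 1762.0 CPM (mean 1830.4 ± 96.8, SD, n = 2). The 7 mural members summed to 281.6 and 289.8 CPM (285.7 ± 5.81), and the 2 ligands to 662.0 and 622.5 CPM (642.2 ± 27.9). By mean level, 8 members stood at 100 CPM or more, 27 between 10 and 100 CPM and 6 below 10 CPM. The order from the top was Vegfb, Rgs5, Vegfa, Cdh13, Igfbp7, Eng, Ly6e and Egfl7. Most neighbours in the order of all 41 could not be separated: in 35 of 40 neighbouring pairs the intervals overlapped in both libraries. The 5 pairs that were apart in at least 1 library were Vegfb and Rgs5, Ly6e and Egfl7, Egfl7 and Esam, Aqp1 and Cldn5, and Cldn5 and Ramp2.

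**Figure D1:**
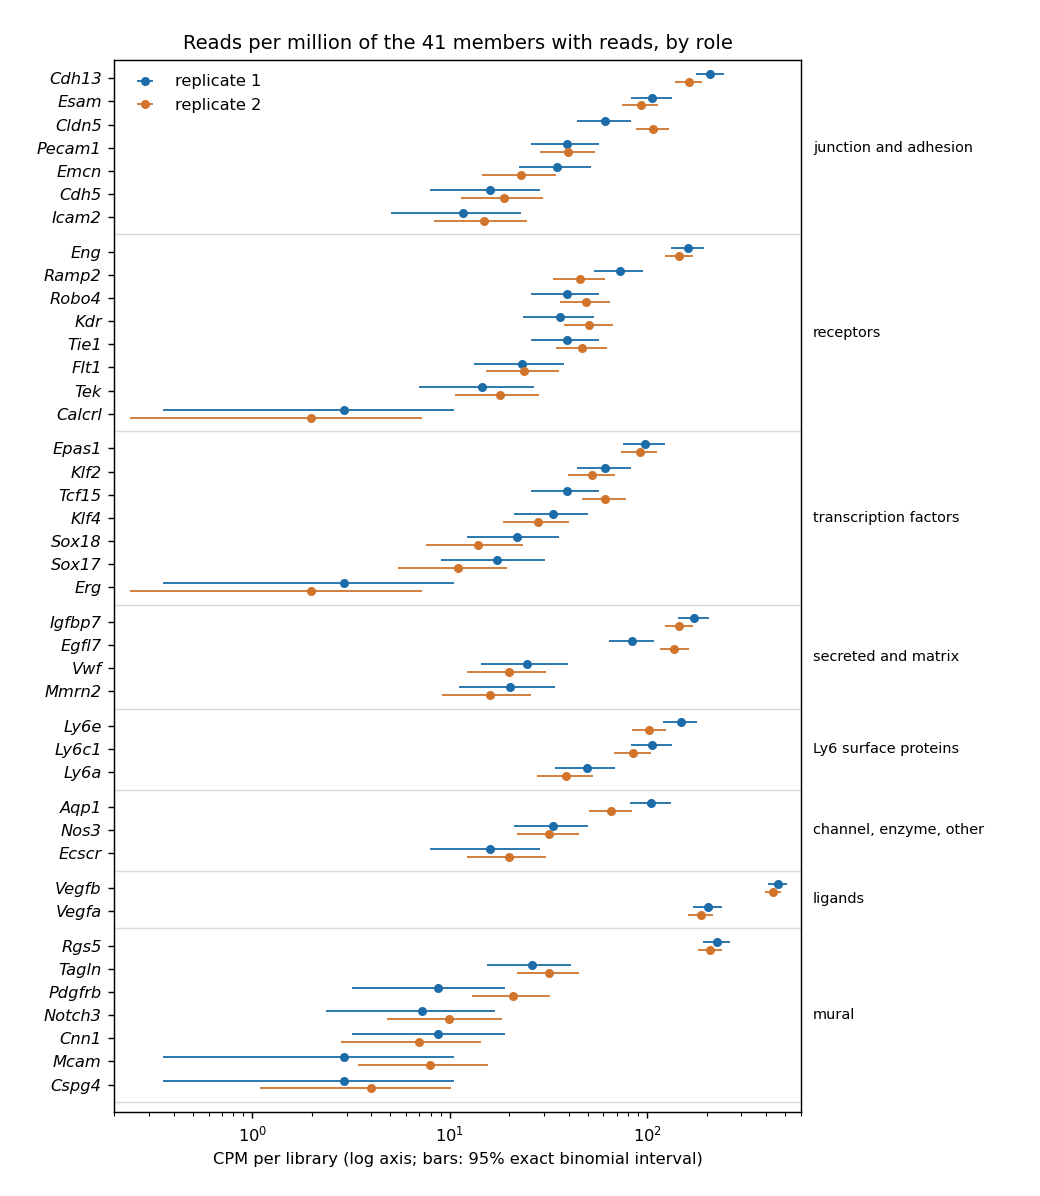
Level of each of the 41 members with reads in CPM (log axis), grouped by role. Points are the 2 libraries and bars are 95% exact binomial intervals. Vegfb lies highest at 458.7 and 435.3 CPM, and among endothelial members Egfl7 and Cldn5 are the pair whose replicate 2 points lie to the right with intervals that do not overlap those of replicate 1.

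Vegfb, a growth factor that binds Flt1 but not Kdr, was the highest member. It had 316 reads in replicate 1 and 437 in replicate 2, or 458.7 and 435.3 CPM. Vegfa, the main ligand of Kdr, had 140 and 188 reads, or 203.2 and 187.3 CPM. For both ligands the intervals of the libraries overlapped, and Vegfb stood above Vegfa in each library.

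Vegfa transcripts differ in the exons that carry the heparin-binding part, which decides whether the protein stays on the cell surface and matrix or diffuses. The 3 annotated choices are shown across the join, from GENCODE M21 transcripts on the minus strand of chromosome 17 (mm10). They are shown because the choice sets which ligand the heart makes. Capitals mark the 72-nt exon in Vegfa-207 (46022277 to 46022348), and in the other two the bases on each side of the join that skips it.
Vegfa-207: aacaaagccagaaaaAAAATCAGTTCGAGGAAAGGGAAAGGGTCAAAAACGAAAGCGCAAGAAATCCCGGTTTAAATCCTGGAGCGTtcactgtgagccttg
Vegfa-202: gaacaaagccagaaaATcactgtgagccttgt
Vegfa-201: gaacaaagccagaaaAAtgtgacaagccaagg

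Vegfa-207 holds the 72-nt exon and the following 132-nt exon and encodes the form named VEGF188 in mouse. Vegfa-202 holds the 132-nt exon alone (VEGF164), and Vegfa-201 skips both (VEGF120). Among reads that show the choice, VEGF188 took 61 of 119 in replicate 1 (51.3%, 41.9 to 60.5) and 76 of 149 in replicate 2 (51.0%, 42.7 to 59.3). VEGF164 took 55 reads (46.2%) and 69 reads (46.3%). The diffusible VEGF120 was rare, with 3 reads (2.52%, 0.523 to 7.19) and 4 reads (2.68%, 0.736 to 6.73). VEGF188 and VEGF164 could not be ranked, since their intervals overlapped in both libraries, while VEGF120 lay below both. A further 21 and 39 reads did not reach the choice, of which 19 and 37 were single-exon genomic reads. Genomic is a model class of the authors' files, and such models can lie within annotated exons.

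Vegfb has a choice between nearby acceptor sites of its sixth exon that shifts the reading frame of the C terminus. The join is shown on the minus strand of chromosome 19 (mm10), and capitals mark the 101 bases that Vegfb-201 keeps (6985496 to 6985596), or in Vegfb-202 the bases on each side of the shorter join.
Vegfb-201: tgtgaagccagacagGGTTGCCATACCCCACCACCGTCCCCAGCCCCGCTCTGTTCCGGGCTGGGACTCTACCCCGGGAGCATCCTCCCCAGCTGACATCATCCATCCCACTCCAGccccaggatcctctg
Vegfb-202: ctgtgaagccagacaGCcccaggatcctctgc

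Vegfb-202 has 188 codons and encodes the heparin-binding form VEGF-B167, while Vegfb-201 has 207 codons and encodes the freely secreted VEGF-B186. VEGF-B167 took 176 of 284 reads in replicate 1 (62.0%, 56.0 to 67.6) and 234 of 380 in replicate 2 (61.6%, 56.5 to 66.5). VEGF-B186 took 108 and 146 reads, or 38.0% and 38.4%. VEGF-B167 was the more frequent in both libraries, with intervals that did not reach those of VEGF-B186. For every form of both ligands the SD between the libraries was at most 0.278 percentage points.

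Among the receptors, endoglin (Eng), a co-receptor for TGF-beta family ligands on endothelium, was the highest. It had 111 and 146 reads, or 161.1 and 145.4 CPM. Its acceptor of the second exon offers a choice of 3 bases, shown for the plus strand of chromosome 2 (mm10). Capitals mark the bases that Eng-201 keeps (32657516 to 32657518), or the bases on each side of the join in Eng-205.
Eng-201: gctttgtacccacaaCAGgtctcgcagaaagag
Eng-205: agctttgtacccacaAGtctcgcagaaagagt

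The longer Eng form took 68 of 93 reads that show the choice in replicate 1 (73.1%, 62.9 to 81.8) and 91 of 116 in replicate 2 (78.4%, 69.9 to 85.5). The form that is shorter by 1 codon took the other 25 reads in each library. Endoglin is also known for a short form that keeps the last intron and has a different cytoplasmic tail. Reads running through that intron numbered 1 of 106 in replicate 1 (0.943%, 0.0239 to 5.14) and 0 of 132 in replicate 2, which allows a share of up to 2.27%.

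Kdr (VEGF receptor 2), the main signalling receptor for VEGF-A, had 25 and 51 reads, or 36.3 and 50.8 CPM. Its full 30-exon transcript Kdr-201 took 11 and 32 of these reads. A model that matched only the first 11 exons held 2 and 1 reads. Flt1 (VEGF receptor 1), which binds VEGF-A and VEGF-B and also circulates as a soluble decoy, had 16 and 24 reads, or 23.2 and 23.9 CPM. The intervals of Flt1 and Kdr overlapped in replicate 1 (13.3 to 37.7 and 23.5 to 53.6 CPM) and were apart in replicate 2 (15.3 to 35.6 and 37.8 to 66.8 CPM).

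The soluble Flt1 transcript runs on into an intron of the membrane form. Both are shown on the minus strand of chromosome 5 (mm10), with capitals for the coding bases that only the soluble form has (147639133 to 147639224) and for the bases on each side of the membrane form's join.
Flt1-203: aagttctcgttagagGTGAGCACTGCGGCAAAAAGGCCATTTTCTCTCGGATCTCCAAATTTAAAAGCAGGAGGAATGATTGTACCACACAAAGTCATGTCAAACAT
Flt1-202: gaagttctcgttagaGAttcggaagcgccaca

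Only 5 and 10 Flt1 reads showed this choice. The soluble form took 2 of 5 (40.0%, 5.27 to 85.3) and 7 of 10 (70.0%, 34.8 to 93.3), counting reads that ran at least 50 bases past the donor site, so unspliced RNA would be counted with it. At this depth no order of the 2 forms could be given in either library. Most other Flt1 reads were single-exon reads in the last exon region. In replicate 1 these were mostly assigned to genomic models (10 reads, with no single-exon incomplete read), and in replicate 2 mostly to an incomplete model (12 reads, with 1 read on the same genomic model).

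The angiopoietin receptor Tek had 10 and 18 reads (14.5 and 17.9 CPM), and its relative Tie1 had 27 and 47 reads (39.2 and 46.8 CPM). Tek also has a choice of 3 bases, at a donor site on the plus strand of chromosome 4 (mm10). Capitals mark the bases that Tek-203 keeps and Tek-201 lacks (94851875 to 94851877).
Tek-203: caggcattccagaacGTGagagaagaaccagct

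Reads with these 3 bases numbered 7 of 9 in replicate 1 (77.8%, 40.0 to 97.2) and 9 of 14 in replicate 2 (64.3%, 35.1 to 87.2). Tie1-201 took 15 and 26 reads of its gene. Genomic reads took a further 5 and 14. Robo4, an endothelium-specific guidance receptor, had 27 and 49 reads (39.2 and 48.8 CPM), but few were complete. Its 18-exon transcripts Robo4-201 and Robo4-205 held 6 and 2 reads and 2 and 2 reads. Incomplete splice matches (reads whose exons are a stretch of a known transcript) made up 63.0% and 85.7% of Robo4 reads, and the 2 most frequent covered its last 6 exons.

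Ramp2, the partner protein that turns Calcrl into an adrenomedullin receptor, had 50 and 46 reads (72.6 and 45.8 CPM). Calcrl itself had 2 reads in each library, none on a known transcript. The ratio of Ramp2 had a log2 value of -0.65 with an adjusted p of 0.320 (exact binomial test). Ramp2 counts are uncertain, since its annotated transcripts share 31.7% of their 31-base words with Vps25, a neighbour on the same strand with 89 and 121 reads.

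Of the junction and adhesion members, Cdh13 (T-cadherin, a cadherin without a transmembrane part that binds adiponectin) was highest, with 144 and 163 reads, or 209.0 and 162.4 CPM. None of its 307 reads was assigned to a known transcript, which allows a share of up to 0.977%. The main model held 97 and 90 reads and covered 13 exons from the second exon of Cdh13-201 to the last. The first intron of Cdh13-201 is 221705 nt long (chromosome 8, 118283899 to 118505603, mm10), and no Cdh13 read joined across it. The second intron, of 169302 nt, was spanned by 98 and 92 reads. Over all genes, only 2 models with 3 reads in replicate 1 and 8 models with 10 reads in replicate 2 had an intron at least as long as the first. The part of intron length in the missing first exon was not tested.

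A second Cdh13 model began at the alternative first exon of Cdh13-207 (119277411 to 119277509) and went on through the last 4 exons of Cdh13-201, a combination of annotated sites that no annotated transcript has. It held 33 and 46 reads, or 22.9% and 28.2% of the gene, and was the new spliced model with the most reads among all members.

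Esam, an adhesion molecule of endothelial tight junctions, had 73 and 93 reads (106.0 and 92.6 CPM). Claudin-5 (Cldn5), the tight junction claudin of endothelium, had 42 reads in replicate 1 and 107 in replicate 2, or 61.0 and 106.6 CPM. Its intervals (43.9 to 82.4 and 87.3 to 128.8 CPM) did not overlap. Cldn5 has a single exon, and every read was assigned to Cldn5-201. Emcn (endomucin, a mucin of capillaries and veins) had 34.8 and 22.9 CPM. VE-cadherin (Cdh5), the adhesion protein of endothelial adherens junctions, had 11 and 19 reads (16.0 and 18.9 CPM), and Icam2, which binds leukocyte integrins, had 8 and 15 (11.6 and 14.9 CPM). In Cdh5, genomic reads numbered 0 in replicate 1 and 9 in replicate 2, while single-exon incomplete reads at overlapping positions numbered 3 and 0.

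Pecam1 (CD31), the classical endothelial adhesion marker that also signals through its cytoplasmic tail, had 27 and 40 reads, or 39.2 and 39.8 CPM. Its tail is built from short exons that are spliced in or out. Those that varied are shown on the minus strand of chromosome 11 (mm10) with the exon in capitals. The 57-nt exon encodes part of the tail with an inhibitory tyrosine motif.
54-nt exon: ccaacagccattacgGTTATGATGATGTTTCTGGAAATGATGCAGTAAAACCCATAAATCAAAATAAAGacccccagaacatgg
57-nt exon: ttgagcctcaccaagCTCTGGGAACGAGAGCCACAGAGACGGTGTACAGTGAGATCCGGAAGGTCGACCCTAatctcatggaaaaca
23-nt exon: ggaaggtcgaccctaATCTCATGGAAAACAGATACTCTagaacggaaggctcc

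The 54-nt exon (106681032 to 106681085) was included in 18 of 26 reads in replicate 1 (69.2%, 48.2 to 85.7) and 30 of 36 in replicate 2 (83.3%, 67.2 to 93.6). The 57-nt exon (106671742 to 106671798) was included in 17 of 26 (65.4%) and 24 of 36 (66.7%). The 23-nt exon (106662002 to 106662024), which shifts the reading frame of the tail's end, was included in 9 of 26 (34.6%, 17.2 to 55.7) and 17 of 35 (48.6%, 31.4 to 66.0). No annotated transcript dominated Pecam1. Pecam1-204 held 1 and 11 reads, Pecam1-203 held 3 and 8, and Pecam1-202 held 6 and 4. New combinations of known splice sites held a further 11 and 6 reads. Its top transcript, Pecam1-204, took 3.70% and 27.5% of the gene's reads (Fisher's exact test, unadjusted p = 0.0202, adjusted p = 0.400).

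**Figure D2:**
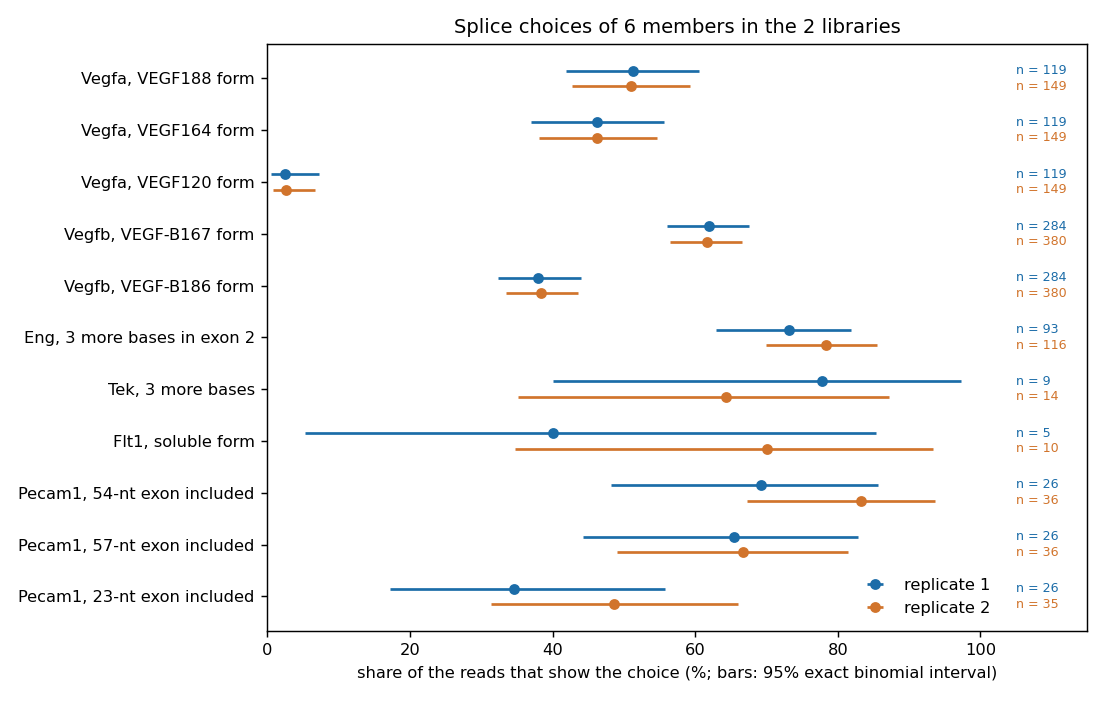
Share of reads that show each splice choice (x axis, %), for 6 members in the 2 libraries. Points are shares, bars are 95% exact binomial intervals, and n is the number of reads that show the choice. Both libraries gave nearly the same share for Vegfa and Vegfb (SD at most 0.278 percentage points), while Flt1 rests on 5 and 10 reads and Tek on 9 and 14.

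Of the endothelial transcription factors, Epas1 (HIF-2 alpha, the oxygen-regulated factor of vessels) was highest, with 67 and 92 reads, or 97.3 and 91.6 CPM. Its 16-exon transcript took 38 and 45 reads, and single-exon reads in its last exon took 12 and 17. Klf2, induced by laminar flow, had 61.0 and 52.8 CPM, and its relative Klf4 had 33.4 and 27.9 CPM. Tcf15, a factor of heart microvascular endothelium, had 27 reads in replicate 1 and 61 in replicate 2, or 39.2 and 60.8 CPM, a log2 ratio of 0.62 (adjusted p = 0.454, exact binomial test). Sox18 had 15 and 14 reads (21.8 and 13.9 CPM) and Sox17 had 12 and 11 (mean 14.2 ± 4.57 CPM, SD, n = 2). Both belong to the SoxF group that acts in arterial and lymphatic development. Erg, an ETS factor that maintains endothelial identity, had 2 reads in each library, all on genomic models. In Klf4, genomic reads numbered 4 of 23 and 14 of 28.

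Among secreted and matrix members, Igfbp7, a matrix-bound protein of vessel walls, had 119 and 146 reads (172.7 and 145.4 CPM), and Igfbp7-201 took 96.6% of them in each library. Vwf (von Willebrand factor, which tethers platelets) had 17 and 20 reads (24.7 and 19.9 CPM). Of these only 2 and 1 were on the full 52-exon transcript Vwf-203, whose 8834 nt make it the longest of the members. Mmrn2, which binds VEGF-A in the endothelial matrix, had 20.3 and 15.9 CPM.

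Egfl7, a protein that endothelial cells secrete into the matrix, had 58 reads in replicate 1 and 138 in replicate 2, or 84.2 and 137.5 CPM. Its intervals (63.9 to 108.8 and 115.5 to 162.4 CPM) did not overlap. The model that differed most in reads was Egfl7-213, a single-exon transcript of 536 nt annotated as a retained intron at the 3' end of the gene (chromosome 2, 26592147 to 26592682, mm10). It held 12 reads (20.7%) in replicate 1 and 63 (45.7%) in replicate 2 (Fisher's exact test, unadjusted p = 0.00119, adjusted p = 0.0545 over all genes). The 10-exon coding transcript Egfl7-202 held 23 and 39 reads. Counted without Egfl7-213, the gene had 46 and 75 reads, or 66.8 and 74.7 CPM (log2 ratio 0.16, adjusted p = 0.947, exact binomial test). Agpat2 overlaps Egfl7 on the other strand with 66 and 121 reads, so the assignment of reads to either gene is uncertain. The same holds for Igfbp7 with Polr2b (25 and 42 reads), Tagln with Pcsk7 (17 and 26 reads) and Eng with Fpgs (8 and 10 reads).

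Egfl7 is also the host of the endothelial microRNA miR-126, whose hairpin lies in an intron on the plus strand of chromosome 2 (26591357 to 26591429). Its mature sequence is shown from RefSeq (GRCm38.p6), with the seed, bases 2 to 8, in capitals.
mmu-miR-126a-3p: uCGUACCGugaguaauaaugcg

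Long cDNA reads do not measure the mature microRNA. Reads that spliced across the hairpin numbered 42 in replicate 1 and 69 in replicate 2, and none held it in an exon. The exon downstream of the hairpin was mostly the annotated 65-nt form, in 30 and 53 reads. An unannotated form of 164 nt with an acceptor further upstream (26591565 to 26591728) was found in 7 and 10 reads.

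The Ly6 surface proteins are small lipid-anchored proteins, of which Ly6c1 and Ly6a (Sca-1) mark endothelium in mouse. Ly6e had 102 and 103 reads (148.1 and 102.6 CPM), Ly6c1 had 73 and 85 (106.0 and 84.7 CPM) and Ly6a had 34 and 39 (49.4 and 38.8 CPM). All 3 ratios were negative (median log2 -0.34), and none passed the test. Ly6e was divided between Ly6e-201 (37 and 35 reads) and Ly6e-215 (25 and 26 reads), which have the same 136 codons. Of the 31-base words of Ly6c1 transcripts, 33.0% also occur in Ly6c2, which had no reads, and 21.9% of those of Ly6a occur in Ly6c1, so the split between these genes is uncertain.

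Aqp1, the water channel of capillary endothelium, had 72 and 66 reads, or 104.5 and 65.7 CPM, a log2 ratio of -0.66 (adjusted p = 0.136, exact binomial test). Its complete transcript Aqp1-201 took 34 and 22 reads, fewer than the 36 and 44 single-exon reads in its last exon. Nos3 (endothelial nitric oxide synthase) had 23 and 32 reads (33.4 and 31.9 CPM), of which the 26-exon Nos3-201 took 15 and 17. Ecscr, a regulator of endothelial migration, had 11 and 20 reads (16.0 and 19.9 CPM).

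Most mural reads came from 1 gene. Rgs5, a G protein regulator typical of pericytes, had 155 and 209 reads, or 225.0 and 208.2 CPM. Its 4096-nt transcript Rgs5-201 took 125 and 166 of them. The next mural member, Tagln (transgelin, an actin-binding protein of smooth muscle), had 18 and 32 reads (26.1 and 31.9 CPM). Pdgfrb, the receptor for PDGF-B, had 6 reads in replicate 1 and 21 in replicate 2 (8.71 and 20.9 CPM, log2 ratio 1.17, adjusted p = 0.421, exact binomial test). Only 1 Pdgfrb read was on a known transcript. A 23-exon Pdgfrb model with a new splice site, which spanned the gene, held 1 and 5 reads. Single-exon incomplete reads numbered 0 and 9, and genomic reads at overlapping positions numbered 3 and 0. Notch3, the smooth muscle and pericyte Notch receptor, had 5 and 10 reads, the contractile protein Cnn1 had 6 and 7, Mcam (CD146) had 2 and 8 and the proteoglycan Cspg4 (NG2) had 2 and 4. Of the Mcam reads that show its tail, 2 of 2 and 4 of 5 were of Mcam-201, the form with the longer cytoplasmic part. In Cspg4 5 of 6 reads, and in Notch3 9 of 15, were genomic.

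Genes reaching 10 reads over the pair of libraries were tested for a difference between the libraries. The test was the exact binomial test, two-sided, with the split of all mouse reads as the null share and p-values adjusted by Benjamini-Hochberg. Calcrl, Erg, Cspg4 and Des3 had too few reads. The libraries differed by more than counting error, with a chi-square per gene of 2.58 over all genes tested and 1.94 over the members, where counting error alone gives about 1. The binomial and Fisher p-values, which assume counting error alone, are therefore too small. Of the 38 members tested, 0 passed the 0.05 threshold. Over all 8836 genes tested, 297 passed (3.36%), 120 higher in replicate 2 (1.36%) and 177 lower (2.00%). At an unadjusted p under 0.05 there were 6 members (Egfl7, Cldn5, Aqp1, Ly6e, Cdh13 and Ramp2) and 1061 of all 8836 genes. Taken as replicate 2 over replicate 1, the log2 ratios of the members had a median of -0.10, with 16 positive and 22 negative, beside -0.06 for all genes. The 30 endothelial members tested had a median of -0.17, with 12 positive and 18 negative. The 6 mural members tested had a median of 0.34, with 4 positive and 2 negative. Rgs5, which held most mural reads, had -0.11, and several of the others had few reads.

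Egfl7 and Cldn5 lay just outside the threshold, with log2 ratios of 0.70 and 0.80 and adjusted p of 0.0502 and 0.0550. With edgeR's trimmed-mean (TMM) scaling these became 0.0192 and 0.0292, and with DESeq2 size factors 0.0191 and 0.0292, so that 2 members were called higher. Of all 8836 genes tested, 3.30% and 3.29% were called under these scalings. Both scalings moved the median of all genes from -0.06 to 0.00. Whether these 2 genes passed thus depended on the scaling. Reads on single-exon models also differed between the libraries. In members with a spliced transcript, such reads numbered 210 of 1916 in replicate 1 (9.60% to 12.4%) and 420 of 2578 in replicate 2 (16.3%, 14.9% to 17.8%), and over all such genes they made up 10.3% and 12.9%. The member counts include the 12 and 63 reads of Egfl7-213 itself and leave out Cldn5, which has no spliced transcript. These shares are therefore not independent of the Egfl7 difference. The Egfl7-213 model and Cldn5 are both single-exon, and the part of single-exon reads in their difference was not tested.

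**Figure D3:**
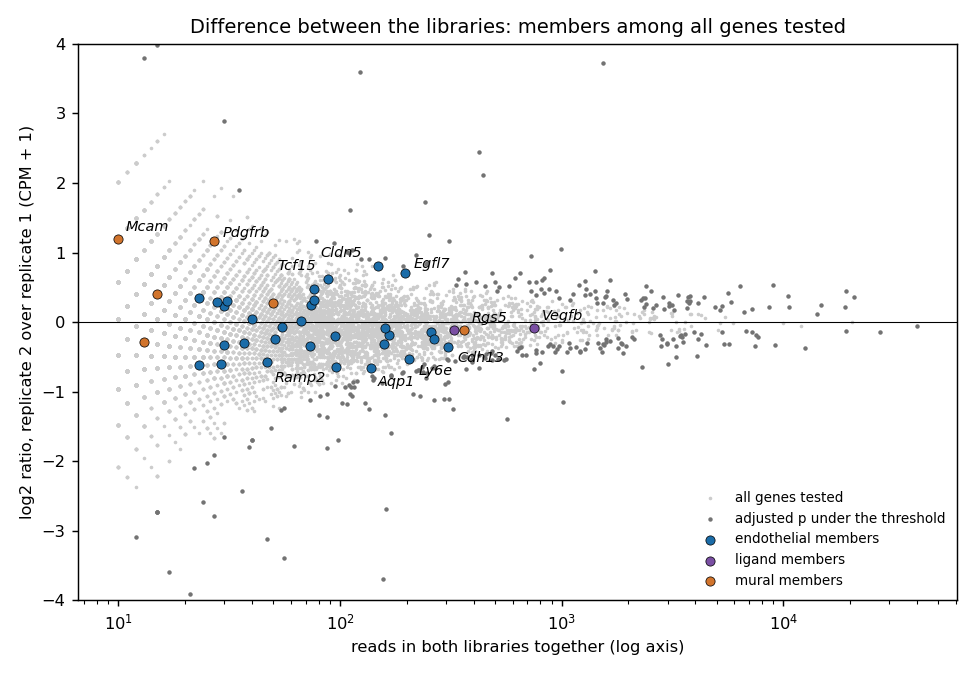
Log2 ratio of replicate 2 over replicate 1 (CPM plus 1, y axis) against the reads of a gene in both libraries (x axis, log) for all 8836 genes tested, with darker points for those that passed the adjusted test. Coloured points are the 38 members tested, and Egfl7 at 0.70 and Cldn5 at 0.80 lie at the edge of the genes that passed. The axis stops at 4 in either direction and leaves out 10 genes beyond it.

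The isoform test compared the share of each gene's top transcript between the libraries, over genes with at least 20 reads in each. Of 24 members tested, 0 passed (Fisher's exact test with Benjamini-Hochberg adjustment), against 88 of all 4087 genes (2.15%). At an unadjusted p under 0.05 there were 4 members, Egfl7, Esam, Pecam1 and Cdh13, and 334 of all 4087 genes. Esam-201 took 82.2% (71.5 to 90.2) and 63.4% (52.8 to 73.2) of Esam reads (unadjusted p = 0.00920, adjusted p = 0.259), while its genomic reads numbered 8 and 27. A second model with at least 10% of the gene's reads existed in 18 of these 24 members.

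Known transcripts took 67.6% (65.5 to 69.7) and 66.2% (64.4 to 68.0) of member reads, against 74.8% (74.7 to 74.9) and 72.4% (72.3 to 72.5) over all annotated genes, so the members' intervals lay below in both libraries. Cdh13 alone held 144 of the 1958 member reads in replicate 1 and 163 of the 2685 in replicate 2, with 0 on known transcripts. The share without Cdh13 was not computed, and its part in this gap was not tested. Incomplete splice matches took 20.8% and 21.2%, against 12.6% and 14.9%. Endothelial members, with Cdh13 among them, had 62.9% and 62.6% known reads. Mural members had 76.8% and 70.8% and ligands 77.2% and 74.1%. New transcripts of known splice sites took 4.44% and 3.99% of member reads, and those with a new site 3.22% and 3.02%. Of the incomplete member reads, 276 of 407 in replicate 1 and 353 of 568 in replicate 2 held the 3' end of an annotated transcript without its start. Single-exon reads numbered 122 and 205.

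**Figure D4:**
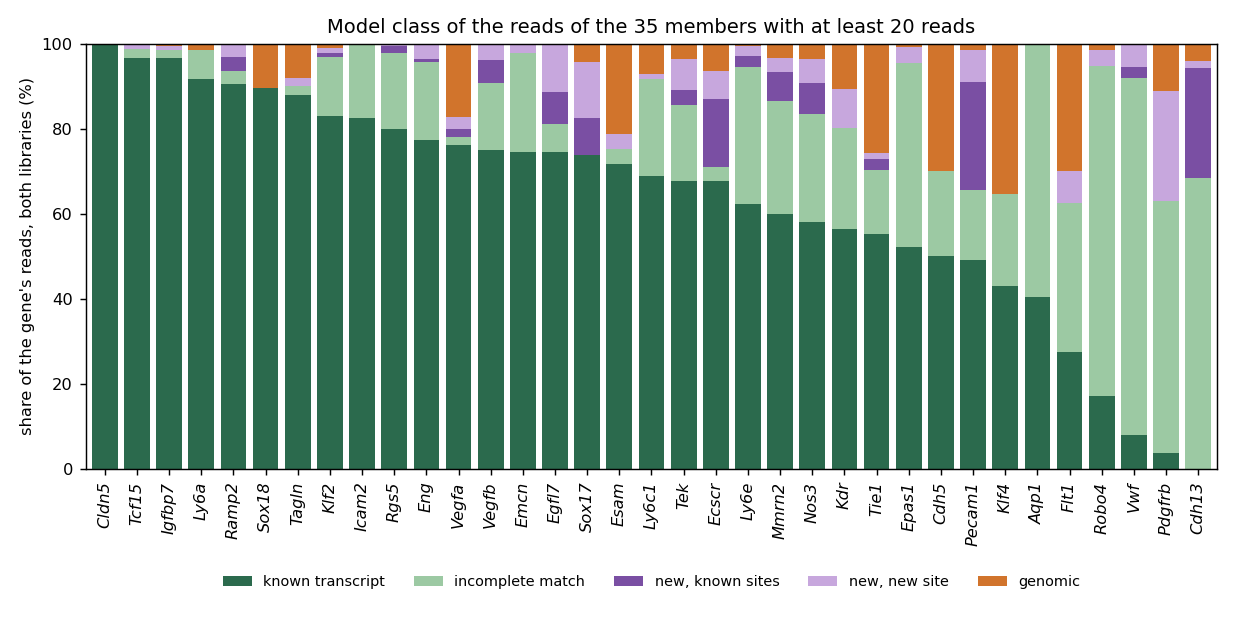
Share of each gene's reads by model class (y axis, %, both libraries together) for the 35 members with at least 20 reads, ordered by the known share. The classes are known transcripts, incomplete matches, new transcripts of known splice sites, new transcripts with a new site, and genomic reads. All Cldn5 reads are on its known transcript, 40.6% of Aqp1 reads are, and none of those of Cdh13.

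Members with longer transcripts had lower known shares. Across the 35 members with at least 20 reads, the Spearman correlation between the longest annotated transcript and the known share was -0.73, and across 6785 genes with that many reads it was -0.45. This describes genes within the same libraries, which are not independent replicates. The 14 members under 2000 nt had a median known share of 85.6% and the 11 members of 4000 nt or more 52.2%. Within the long group Rgs5, at 4096 nt, had 79.9% (75.5 to 83.9), while Robo4 at 4952 nt had 17.1% (9.43 to 27.5) and Cdh13 at 4565 nt had none. Members and all genes with at least 20 reads had median lengths of 3242 and 3026 nt, and median known shares of 69.0% and 77.3%.

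**Figure D5:**
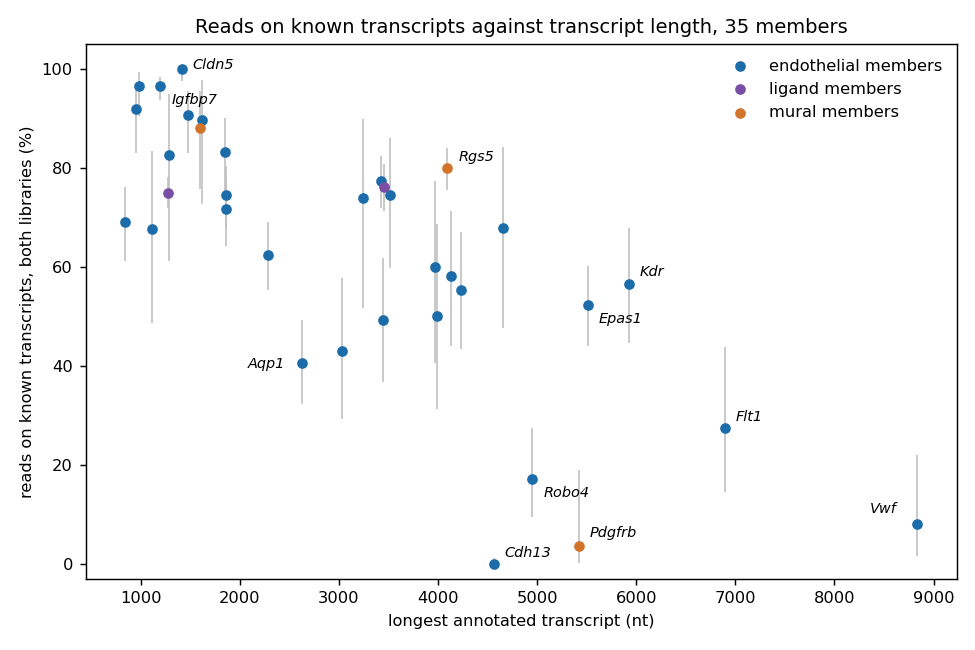
Share of reads on known transcripts (y axis, %, both libraries) against the length of the longest annotated transcript (x axis, nt) for 35 members, with 95% exact binomial intervals. Short genes such as Igfbp7 lie at 96.6%, Vwf, the longest at 8834 nt, at 8.11%, and Rgs5, at 4096 nt, at 79.9%.

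The members' reads were spread over 436 distinct models, of which 238 had 1 read. New spliced models numbered 155. Of these 25, from 13 genes, were found in both libraries, and 116 had 1 read in all. After that of Cdh13, the most frequent were models of Vegfb with 8 and 10 reads and of Egfl7 with 7 and 6.

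Other genes of the same pathways and vessel types came from lists. Of 133 such genes, 127 had reads and 101 were tested, of which 1 was called higher and 1 lower in replicate 2. Of all 8836 genes tested, 1.36% were called higher and 2.00% lower. The VEGF and angiopoietin pathway (10 tested, 0 called) was led by Nrp1, a VEGF co-receptor, at 87.1 and 99.6 CPM, followed by the adaptor Shb (56.6 and 28.9 CPM) and Plcg1 (30.5 and 48.8 CPM). The listed name Figf matched no symbol. In the Notch pathway (8 tested, 0 called) Hes1 and Rbpj each had 18.9 and 15.9 CPM, Dll4 had 20.3 and 12.9 CPM and Hey2 had no reads. The PDGF and TGF-beta pathway (13 tested, 0 called) was led by Id3 at 85.6 and 74.7 CPM, with Pdgfa at 24.7 and 16.9 CPM and Pdgfd at 23.2 and 14.9 CPM. Pdgfb, the endothelial ligand of Pdgfrb, had 6 and 5 reads.

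In the hypoxia pathway (9 tested, 0 called) the oxygen sensor Egln1 stood at 728.7 and 720.1 CPM, Bnip3 at 437.0 and 348.6 CPM and Egln2 at 135.0 and 107.6 CPM, while Hif3a had no reads. These genes are expressed in cardiomyocytes as well as in vessels.

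Further pan-endothelial genes (24 tested) were led by Fabp4, Slc9a3r2 (209.0 and 246.0 CPM) and Cav1 (140.8 and 100.6 CPM). Fabp4, a fatty acid binding protein of capillaries and adipocytes, was called higher in replicate 2, with 266 and 543 reads or 386.1 and 540.8 CPM (log2 ratio 0.48, adjusted p = 3.53e-04, exact binomial test). On known transcripts alone it had 45 and 89 reads with a log2 ratio of 0.50, as large as before, and on these fewer reads was not called (adjusted p = 0.470). The adipocyte markers Adipoq, Cfd and Plin1 summed to 52.3 and 8.96 CPM (36 and 9 reads). Most of these reads were of Cfd, with 29 and 7 reads, which was called lower in replicate 2 (adjusted p = 1.04e-04, exact binomial test). The part of adipocytes in the Fabp4 result was not tested. Of 8 capillary genes tested, Rgcc was called lower, with 200 and 122 reads or 290.3 and 121.5 CPM (log2 ratio -1.25, adjusted p = 2.75e-12, exact binomial test). Next were Gpihbp1, which anchors lipoprotein lipase on capillaries, at 108.9 and 103.6 CPM and Timp4 at 101.6 and 74.7 CPM.

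In the lists of other vessel segments no gene was called. The median level of the capillary genes tested was 28.6 CPM. It was 6.25 CPM for arterial, 35.4 CPM for venous, 9.61 CPM for lymphatic and 12.4 CPM for endocardial genes. Arterial genes (4 tested) were led by Fbln5 at 21.8 and 17.9 CPM, Stmn2 at 8.71 and 3.98 CPM and Hey1 at 4.36 and 7.97 CPM, with no reads on Dkk2. Venous genes (5 tested) included Ephb4 (39.2 and 41.8 CPM) and Plvap (29.0 and 41.8 CPM), with no reads on Selp. Lymphatic genes (3 tested) were led by Ccl21a with 10 and 27 reads, Prox1 with 5 and 12 and Pdpn with 5 and 7. Endocardial genes (5 tested) were led by Bmp6 (16.0 and 30.9 CPM), Tmem100 (31.9 and 14.9 CPM) and Cytl1 (5.81 and 18.9 CPM), with no reads on Hapln1.

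Other pericyte genes (7 tested, 0 called) included the potassium channel pair Abcc9 (52.3 and 62.7 CPM) and Kcnj8 (30.5 and 51.8 CPM), which cardiomyocytes express too, and Steap4 (30.5 and 31.9 CPM). Other smooth muscle genes (8 tested, 0 called) were led by Smtn at 184.4 and 166.3 CPM, Acta2 at 66.8 and 65.7 CPM and Myl9 at 55.2 and 49.8 CPM. Fibroblast markers summed to 683.7 and 511.0 CPM, macrophage markers to 101.6 and 86.7 CPM, erythroid markers to 6158.0 and 5662.4 CPM and mesothelial markers to 40.6 and 44.8 CPM. Marker genes called lower in replicate 2 were Col3a1 of the fibroblast list, Cfd of the adipocyte list, Hba-a1 of the erythroid list and Myh6 and Actc1 of the cardiomyocyte list, while Myl2 of the cardiomyocyte list was called higher. Lymphocyte markers had 3 reads in each library, with Cd3e at 0.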

How the data were processed

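The files deposited by the authors hold raw counts of reads for every transcript model of a library, with no normalization, plus the exon positions of those models. The build is mm10 and the reference annotation GENCODE M21, per the deposited text descriptions, and TALON is named as the source of new models per the file headers and columns. The aligner, the filters and the software versions: not given in the sources used here. Strand and gene assignment are the authors', so overlapping or near-identical genes have uncertain counts.

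The members and lists were chosen with earlier results of these data known. Gene counts were summed over models and scaled per 1e6 mouse reads, leaving out spike-ins. New models were matched between libraries by intron chain, and single-exon new models of a class were pooled within a gene. Log2 ratios, computed from the deposited counts, used a pseudocount of 1 CPM. Libraries were compared with exact binomial and Fisher's exact tests (scipy 1.17.1), with a threshold of 0.05 after Benjamini-Hochberg adjustment over all genes. The tests were tried on simulated data with counting error alone. That simulation could not show how they behave under the larger spread of these libraries. The summed chi-square between the libraries was 2.58 per gene (1.94 for members), more than sampling noise, so both were kept as separate samples and p-values from counting error alone are too small. Alternatives used edgeR 4.0.16 (TMM factors) and DESeq2 1.42.0 (size factors) in R 4.3.3, other read minimums, subsets of models and thinning of the deeper library.

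Values per library are given for members with at least 20 reads, and reads alone for the others. Lists are named by their 3 highest genes, those called and those at 0 reads. A gene of the venous list is not reported here. Pdgfb was added after its values were seen. Sequences are from GENCODE M21 transcripts and RefSeq.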

Additional observations from a re-analysis of the deposited data

How the results depend on the processing

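No paired analysis was possible because the series has 1 group. The count of members called between libraries, 0 as reported, was 2 with TMM scaling, with DESeq2 size factors, with a minimum of 20 reads, on known transcripts only, without incomplete and genomic models, and with the deeper library thinned. In each of these 6 cases the 2 members were Egfl7 and Cldn5, higher in replicate 2. Between 33 and 38 members were tested in these cases, and 2.88% to 4.61% of all genes tested were called. The count of members remained 0 with a minimum of 5 reads (2.65% of all genes called) and with no minimum (1.72%). It also remained 0 in an alternative chosen after seeing the data, with Egfl7 counted without Egfl7-213 (3.36%). Over these alternatives the adjusted p ranged from 0.00524 to 0.947 for Egfl7 and from 0.0292 to 0.0951 for Cldn5 (exact binomial test). List genes called fell from 2 to 1 on known transcripts only and remained 2 under the other 3 alternatives. Of all genes tested, 3.16% were called on known transcripts only and 3.29% to 4.61% under the others.

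On known transcripts only, scaled to their own totals, the summed level was 1623.7 CPM for endothelial and 297.9 CPM for mural members. Leaving out each replicate gave 1762.0 to 1898.8 CPM and 281.6 to 289.8 CPM. Without Vegfb the known share of member reads was 65.3%, and leaving out each replicate gave 66.2% to 67.6%. Members called in the isoform test stayed at 0 with a minimum of 10 reads and without incomplete and genomic models. Of all genes tested, 1.74% and 0.259% were called under these settings. For single members, TMM scaling moved none of 41 mean levels beyond the spread between replicates. Its factors, 1.02158 and 0.978873, nearly cancel in the mean of the 2 libraries, so this comparison could hardly show a move. Counting known transcripts only moved 28. These levels were scaled to known reads alone, so a level can move with no change in reads. Cldn5, with all reads on its known transcript, went from 83.8 to 119.1 CPM. Levels under 4.36 CPM in replicate 1 and 2.99 CPM in replicate 2 are within what a count of 0 allows, taken as 3 counts. The causes of these changes were not tested.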
